A study of Mus musculus with 6 samples.

Results

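The anti-Rtl1 miRNAs are the products of 5 hairpins, mir-431, mir-433, mir-127, mir-434 and mir-136, which lie opposite the gene Rtl1 in the Dlk1-Dio3 imprinted domain of mouse chromosome 12. The members were taken by name, as the 5p and 3p arms of these hairpins, which makes 10 of the 1011 rows in the deposited count table. Islets, the endocrine cell clusters of the pancreas, were taken from mice under 2 diets, which the labels call HFD and NCD, and their small RNA was sequenced in 3 libraries for each. The labels used here give no strain, sex, age, genotype or time on the diet. Whether a library stands for 1 animal or a pool is not stated either, so p-values measure the spread between these libraries, which may be technical.

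In this domain the miRNAs and the long noncoding RNAs Meg3, Rian and Mirg are transcribed from the maternal chromosome, whereas Dlk1, Rtl1 and Dio3 are expressed from the paternal one. A miRNA loaded into Argonaute pairs with target RNAs mainly through its seed, bases 2 to 8, and a target that pairs along the whole miRNA can be cut. The anti-Rtl1 miRNAs are fully complementary to the Rtl1 transcript and are known for directing its cleavage, a repression of the paternal transcript from the maternal chromosome that matters in the placenta. In islets, miRNAs of this domain are known as beta-cell-enriched RNAs whose levels are reduced in human diabetic islets.

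The mature sequences are shown because they identify the rows and decide which reads could be exchanged between them. They are from RefSeq (GRCm38.p6), 5′ to 3′, with the seed in capitals, in the order of the hairpins along the chromosome.
mmu-miR-431-5p: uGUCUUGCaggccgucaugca
mmu-miR-431-3p: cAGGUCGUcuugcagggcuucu
mmu-miR-433-5p: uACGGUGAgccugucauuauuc
mmu-miR-433-3p: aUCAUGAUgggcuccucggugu
mmu-miR-127-5p: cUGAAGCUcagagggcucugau
mmu-miR-127-3p: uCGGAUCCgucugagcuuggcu
mmu-miR-434-5p: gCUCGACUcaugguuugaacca
mmu-miR-434-3p: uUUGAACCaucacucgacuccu
mmu-miR-136-5p: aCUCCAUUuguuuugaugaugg
mmu-miR-136-3p: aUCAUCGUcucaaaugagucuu
All 10 were found in RefSeq by name, and all 10 are letter for letter the sequences of the deposited rows. The 10 seeds were 10 different heptamers, and none of them occurred as the seed of another of the 958 rows with mouse miRNA names. The members are therefore a group by position and not a seed family.

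The 5 hairpins lie on the plus strand of chromosome 12 within 4942 bases, and each lies inside the coding sequence of Rtl1, which is on the minus strand (GENCODE M21, GRCm38, chr12:109589193-109600330). They are at chr12:109590447-109590537 for mir-431, chr12:109591715-109591838 for mir-433, chr12:109592846-109592915 for mir-127, chr12:109594506-109594599 for mir-434 and chr12:109595327-109595388 for mir-136. The gaps between neighbours were 1177, 1007, 1590 and 727 bases. The cluster starts 18721 bases after the annotated end of Meg3 and ends 8552 bases before the start of Rian. Each of the 10 mature sequences had a perfect antisense match in an annotated Rtl1 transcript. The only other annotated transcript with such a match was Mir3071, for the 2 arms of mir-136.

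The mir-3071 hairpin (chr12:109595318-109595397, minus strand) is the opposite strand of mir-136, and its rows are shown because they bear on what the mir-136 counts hold. In the hairpins below the mature arms are in capitals.
mir-136: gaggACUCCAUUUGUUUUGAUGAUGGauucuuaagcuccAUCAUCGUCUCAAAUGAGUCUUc
mir-3071: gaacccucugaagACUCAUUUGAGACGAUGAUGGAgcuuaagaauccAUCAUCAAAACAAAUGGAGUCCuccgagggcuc
miR-136-3p and miR-3071-5p are reverse complements over 19 bases, and their counts differed by 1 to 10 reads in each library, with totals of 7474 and 7444. The 2 rows are treated here as 1 measurement under 2 names. miR-136-5p and miR-3071-3p are reverse complements over 20 bases but did not share their counts. The miR-3071-3p row held 3.11 to 7.5 times the reads of miR-136-5p, with totals of 8511 and 1865. The labels used here do not say how strand was treated in counting, so the level of miR-136-5p is uncertain. No other row was a reverse complement of a member over at least 18 bases, and no row was near-identical to a member.

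Library totals ran from 7166712 to 11172255 counts, and levels are given as CPM on totals scaled by the TMM factor, a size factor that assumes most miRNAs do not differ. NCD 3 stood apart: its TMM factor was 1.73 against 0.84 to 0.995 in the other libraries. The 7 islet endocrine marker miRNAs, led by miR-375-3p, summed to 278739 CPM in NCD 3 and to between 488948 and 631731 CPM in the other 5 libraries, so endocrine markers were present throughout. These sums are on TMM-scaled totals, so the NCD 3 value is lowered by its factor of 1.73. It does not show that endocrine markers held a smaller share of the NCD 3 reads. In such tissue samples, fewer cells of a type and less RNA per cell cannot be told apart. Adapter ligation has sequence preferences, so levels of different miRNAs compare less well than levels of 1 miRNA between libraries.

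mmu-miR-127-3p (written miR-127-3p from here, as the others) was the most abundant, with 5728, 8771 and 5259 CPM in HFD replicates 1, 2 and 3 and 5683, 5085 and 4387 CPM in the NCD replicates. By mean level it ranked 15 among the 1011 rows, and it held 70.1% to 83.0% of the reads of the 10 members. mmu-miR-434-5p followed at 1207, 1046 and 1378 CPM under HFD and 704, 854 and 802 CPM under NCD. These 2 were separated from each other and from the rest in all 6 libraries.

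A middle group of 4 miRNAs lay close together. mmu-miR-433-3p had 236, 329 and 338 CPM under HFD and 416, 255 and 353 CPM under NCD. mmu-miR-434-3p had 237, 151 and 192 CPM under HFD and 179, 215 and 173 CPM under NCD. The ranges of these neighbours overlapped, and miR-433-3p was the higher in 5 of 6 libraries. The next were miR-136-3p, from 98.1 to 170 CPM, and miR-127-5p, from 61.0 to 109 CPM. Their ranges overlapped too, and miR-136-3p was the higher in 5 of 6 libraries.

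The lowest members by their deposited counts were miR-136-5p, both arms of mir-431 and the 5p arm of mir-433. The place of miR-136-5p depends on which row holds its reads, since the opposite-strand row miR-3071-3p averaged 144 CPM, above miR-136-3p at 128 CPM. miR-136-5p had 13.8 to 40.2 CPM and miR-431-5p had 16.8 to 52.0 CPM, and their order was not stable, with miR-136-5p higher in 4 of 6 libraries. miR-431, known in muscle for promoting the differentiation of satellite cells, gave a 3p arm of 5.40 to 15.4 CPM from 38 to 122 reads per library. miR-433-5p had 5, 0 and 0 reads under HFD and 1, 1 and 16 reads under NCD and was the 1 member that did not pass the filter on low counts. A count of 0 allowed up to 0.379 CPM in HFD 2 and 0.273 CPM in HFD 3. Such limits and the intervals given for shares hold for counting error alone, because no molecular identifiers are named in the labels and PCR copies are not independent molecules.

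**Figure D1:**
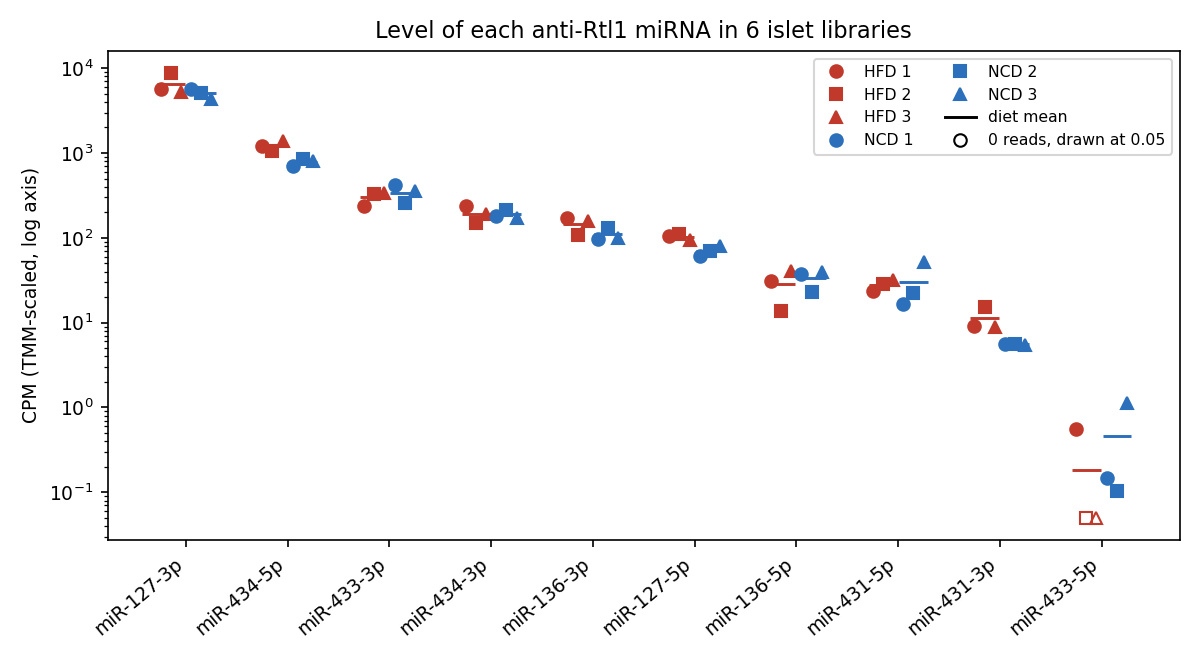
CPM of each anti-Rtl1 miRNA (log axis) in the 3 HFD (red) and 3 NCD (blue) islet libraries, ordered by mean level. Short lines are diet means, and open symbols are libraries with 0 reads, drawn at 0.05. miR-127-3p, from 4387 to 8771 CPM, lies above all other members in each library. On these TMM-scaled levels the diets are separate for miR-434-5p, miR-127-5p and miR-431-3p, which with library totals only they are not.

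**Figure D2:**
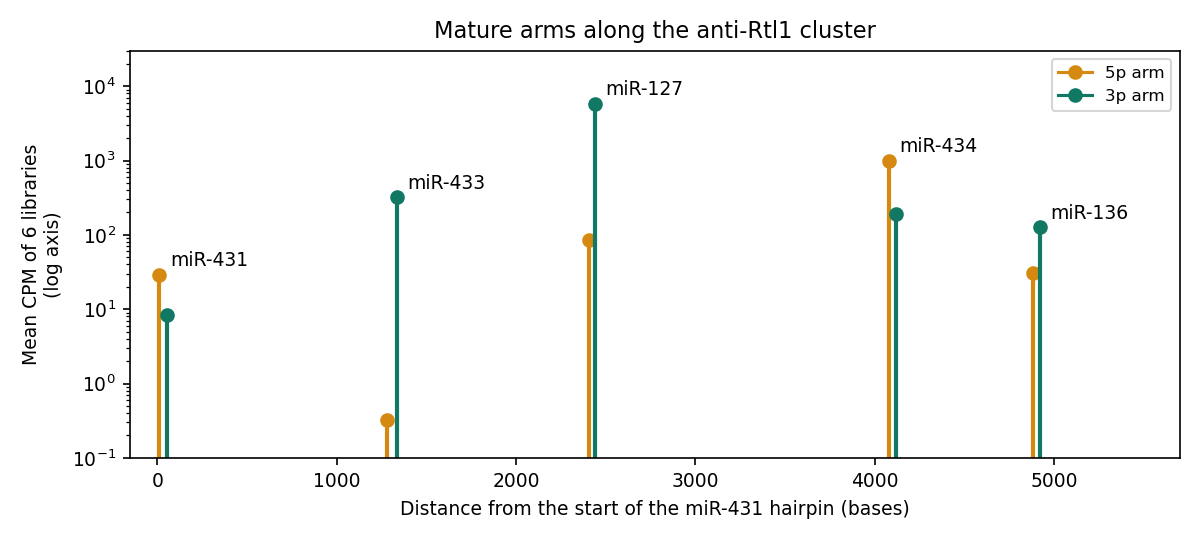
Mean CPM over 6 libraries (log axis) of each 5p arm (orange) and 3p arm (green) against its distance in bases from the start of the mir-431 hairpin. The levels do not run in the order of position: the highest arm is in the middle, at 2441 bases, and the lowest, miR-433-5p at 0.324 CPM, is 1282 bases from the start.

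As a share of all reads in a library, the 10 members held 0.651%, 0.888% and 0.746% under HFD and 0.677%, 0.582% and 1.04% under NCD. The means were 0.762% ± 0.119 under HFD and 0.766% ± 0.241 under NCD (SD, n = 3 each), and the diets overlapped. On TMM-scaled totals the members summed to 7747, 10573 and 7500 CPM under HFD and 7201, 6661 and 5993 CPM under NCD, and the diets did not overlap. NCD 3 thus had the highest share of reads and the lowest scaled sum. No test was made of either sum.

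The rest of the domain gives the scale of the cluster. The 13 rows of the hairpins from mir-770 to mir-665 and of mir-370, on either side of the cluster, held 0.0404% to 0.10% of reads. The 70 rows of the mir-379 to mir-410 cluster held 1.16% to 1.35% of reads. The 10 anti-Rtl1 rows made up 30.4% to 42.3% of the reads of the 93 rows together, and miR-127-3p alone 23.2% to 35.1%. By mean level the most abundant of the mir-379 to mir-410 rows were miR-541-5p (4863 CPM), miR-379-5p (3902 CPM) and miR-409-3p (900 CPM), and those of the other list were miR-370-3p (262 CPM), miR-337-5p (162 CPM) and miR-770-3p (56.2 CPM). miR-127-3p had a higher mean than each of them.

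The first comparison was of HFD against NCD islets for each member. Of the 9 members that passed the filter, 0 passed an adjusted p of 0.05 in the quasi-likelihood test of edgeR (Benjamini-Hochberg over all miRNAs tested), where 0.246% of the 406 tested miRNAs were called. At an unadjusted p under 0.05 there were 2 members, both higher in HFD, where 10.1% of all tested miRNAs had such a p and 4.93% had one and were higher in HFD. With any 1 library left out, 0 or 1 members had such a p. The number was 2 with upper quartile scaling and limma-voom, 1 with RLE size factors and DESeq2, and 0 with library totals only. DESeq2 and limma-voom also called 0 members. Positive log2 fold changes were found for 6 of the 9, where 51.5% of all tested miRNAs had one, and for 5 of the 9 with library totals as the only scaling. The median log2 fold change of the 9 was 0.38, and that of all tested miRNAs was 0.02.

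miR-434-5p, the more abundant arm of mir-434, had 1210 ± 166 CPM under HFD and 787 ± 76.3 CPM under NCD (SD, n = 3 each). The lowest HFD library exceeded the highest NCD library. Its log2 fold change was 0.62 ± 0.29 (SE), with an unadjusted p of 0.0484 and an adjusted p of 0.48 (edgeR). It did not pass, and its log2 fold change was 0.22 with library totals as the only scaling.

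miR-431-3p, the minor arm of mir-431, was at 9.24, 15.4 and 9.0 CPM under HFD and 5.64, 5.64 and 5.40 CPM under NCD. The diets did not overlap, and HFD 2 was the highest library. The log2 fold change of 1.0 ± 0.43 (SE) was the largest among the members, with an unadjusted p of 0.0351 and an adjusted p of 0.48 (edgeR), and it was 0.67 without HFD 2.

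miR-127-5p, the minor arm of mir-127, was at 105, 109 and 93.3 CPM under HFD and 61.0, 69.1 and 80.0 CPM under NCD, again without overlap. Its log2 fold change was 0.55 ± 0.30 (SE) with an adjusted p of 0.562 (edgeR), and it was 0.09 with library totals only. In all, the diets did not overlap on TMM-scaled levels for 3 of the 9 tested members, where 15.3% of all tested miRNAs did not overlap. With library totals only, the diets overlapped for each of these 3 members, through NCD 3. There miR-434-5p lay 0.52 log2 units above its mean in NCD 3, against 0.50 in HFD 3, the highest HFD library. The share of all tested miRNAs was not counted on that scaling.

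The other 6 tested members overlapped between diets. miR-127-3p had 6586 ± 1907 CPM under HFD and 5052 ± 649 CPM under NCD. Its log2 fold change of 0.38 ± 0.31 (SE; edgeR adjusted p = 0.629) was 0.08 when HFD 2, its highest library, was left out. miR-136-3p, whose reads are also listed as miR-3071-5p, had 146 ± 32.6 and 110 ± 19.3 CPM and differed by 0.41 ± 0.32 on the log2 scale (SE; adjusted p = 0.627, edgeR).

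miR-434-3p, miR-431-5p, miR-433-3p and miR-136-5p had log2 fold changes of 0.03 ± 0.31, -0.15 ± 0.43, -0.18 ± 0.31 and -0.22 ± 0.42 (SE), with edgeR adjusted p from 0.858 to 0.967. The value of miR-431-5p was 0.50 without NCD 3, its highest library, and that of miR-136-5p was 0.06 without HFD 2, its lowest. With library totals only, which shifted the median over all tested miRNAs from 0.02 to -0.37, the value of miR-434-3p was -0.34, that of miR-433-3p -0.59 and those of miR-127-3p and miR-136-3p 0.0024 and 0.05.

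**Figure D3:**
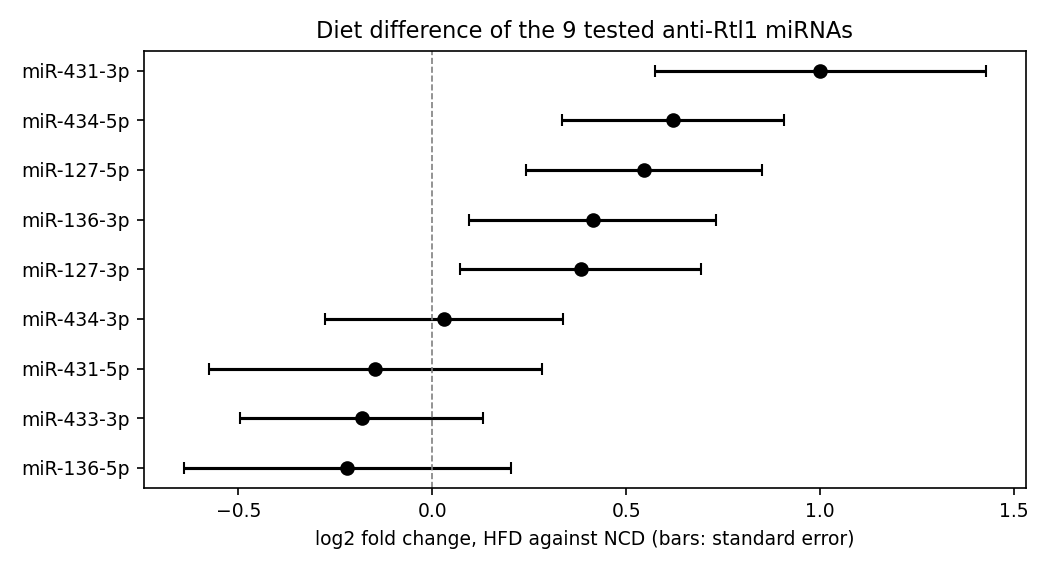
log2 fold change of HFD against NCD islets for the 9 tested anti-Rtl1 miRNAs, with standard errors as bars. The values run from -0.22 for miR-136-5p to 1.0 for miR-431-3p, and none passed the adjusted threshold.

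The other miRNAs of the domain were compared in the same fit. Of the list of hairpins on either side of the cluster, 11 of 13 rows passed the filter, with 9 positive and 2 negative log2 fold changes, a median of 0.07 and 0 calls. Of the mir-379 to mir-410 list, 48 of 70 passed, with 26 positive and 22 negative, a median of 0.03 and 0 calls. At an unadjusted p under 0.05 (edgeR) there were 1 and 2 miRNAs in these lists, each of them higher in HFD. Over all tested miRNAs 10.1% had such a p, 4.93% had one and were higher in HFD, and 51.5% had a positive log2 fold change. These counts are with TMM scaling. The leading miRNAs had log2 fold changes of 0.40 ± 0.28 (miR-370-3p), 0.35 ± 0.38 (miR-541-5p), 0.39 ± 0.32 (miR-379-5p) and -0.41 ± 0.34 (miR-409-3p; SE). Those of miR-337-5p and miR-770-3p were near 0, at 0.04 ± 0.33 and 0.01 ± 0.39. Whether the anti-Rtl1 cluster differed from the rest of the domain was not tested.

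Markers of other cells varied between libraries, and the summed level of each of the 9 marker lists overlapped between diets. None of the 9 lists had a member that passed the adjusted threshold, but their directions were uneven. Of the 12 tested acinar, endothelial, leukocyte, erythroid, liver and muscle markers, pooled here, 0 had a positive log2 fold change. It was positive for 5 of 7 endocrine, 3 of 3 neuronal and 1 of 4 fibroblast and smooth muscle markers. The same held for 6 of the 9 tested anti-Rtl1 miRNAs and for 51.5% of all tested miRNAs. These directions are with TMM scaling, and some lists hold both arms of 1 hairpin. HFD 2, which was highest for miR-127-3p, was also highest for the 4 fibroblast and smooth muscle markers (4969 CPM against 1325 to 2972 CPM elsewhere) and the 3 neuronal markers (852 CPM against 244 to 631 CPM). The summed erythroid markers were highest in HFD 2 too, at 155 CPM against 39.6 to 143 CPM elsewhere. The summed acinar markers ran from 20.2 to 202 CPM under HFD and from 109 to 414 CPM under NCD, with miR-216a-5p at 0 in at least 1 library. Endothelial markers ran from 300 to 434 CPM and from 346 to 748 CPM, and leukocyte markers from 6.18 to 13.3 CPM and from 13.0 to 30.4 CPM. Erythroid markers ran from 47.7 to 155 CPM and from 39.6 to 143 CPM, with miR-144-3p at 0 in at least 1 library. The liver miRNA miR-122-5p ran from 34.1 to 68.3 CPM and from 61.3 to 757 CPM, and muscle markers from 14.2 to 62.1 CPM and from 52.8 to 128 CPM, with miR-133a-3p at 0 in at least 1 library. Their part in the values of the anti-Rtl1 miRNAs was not tested.

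The second comparison was of the 2 arms of each hairpin, which are cut from 1 precursor. Both arms are counted in the same library, so their ratio does not depend on how libraries are scaled. By the members' own counts the same arm was the more abundant in 6 of 6 libraries for each hairpin: the 3p arm for mir-433, mir-127 and mir-136, and the 5p arm for mir-431 and mir-434. For mir-136 this order turns with the row used. With the miR-3071-3p counts in place of those of miR-136-5p, the 5p side was higher in 4 of 6 libraries (HFD 3 and all NCD libraries) and the 3p arm in HFD 1 and HFD 2. The ratio between arms differed widely from hairpin to hairpin.

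mir-433 and mir-127 were nearly 1-sided. For mir-433 the 5p share was 0.236% in HFD 1, 0.0356% in NCD 1, 0.0402% in NCD 2 and 0.321% in NCD 3. HFD 2 and HFD 3 had 0 of 2609 and 0 of 3715 reads, which allows a share of up to 0.115% and 0.0808% at 3 counts of the total. The upper ends of their exact two-sided 95% intervals, which are the ones plotted, were 0.141% and 0.0992%. For mir-127 the 5p share was 1.80%, 1.23% and 1.74% under HFD and 1.06%, 1.34% and 1.79% under NCD. The exact (Clopper-Pearson) 95% interval was 1.68% to 1.91% in HFD 1 and 1.15% to 1.32% in HFD 2, and it was 0.962% to 1.17% in NCD 1 and 1.69% to 1.90% in NCD 3. Within each diet these named intervals did not overlap. In HFD 3 the interval was 1.64% to 1.85%, which overlapped that of HFD 1 but not that of HFD 2. In NCD 2 it was 1.24% to 1.44%, apart from those of NCD 1 and NCD 3.

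mir-434 showed the arm ratio that separated the diets. The 5p arm took 83.6%, 87.4% and 87.8% of its reads under HFD and 79.7%, 79.9% and 82.3% under NCD, so every HFD library lay above every NCD library. The gap between the nearest libraries was small: the exact 95% interval ran from 82.9% to 84.2% in HFD 1 and from 81.6% to 82.9% in NCD 3. On the log2 scale the 5p to 3p ratio averaged 2.66 ± 0.27 under HFD and 2.06 ± 0.13 under NCD (SD, n = 3 each), a difference of 0.60 ± 0.18 (SE). The two-sided exact permutation test gave p = 0.1, the smallest that 3 against 3 libraries can give, and 0.5 after adjustment over the 5 hairpins.

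That separation was not rare. Of the 96 hairpins with both arms tested, 13.5% had log2 ratios that did not overlap between diets, and mir-434 ranked 46 of 96 by the size of its difference. The difference stayed between 0.51 and 0.76 when any 1 library was left out. In the levels, it went with a log2 fold change of 0.62 for the 5p arm and 0.03 for the 3p arm. The sequence of the hairpin, with the arms in capitals, is given because its arms are the ones whose balance separated the diets.
mir-434: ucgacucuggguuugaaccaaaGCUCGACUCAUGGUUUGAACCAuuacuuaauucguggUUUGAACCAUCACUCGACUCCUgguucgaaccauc

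The other hairpins overlapped between diets. mir-431 gave 72.0%, 64.9% and 77.9% of its reads as 5p under HFD and 74.8%, 79.9% and 90.6% under NCD. The difference in log2 ratio was -0.92 ± 0.58 (SE; exact permutation p = 0.2), and it was -0.42 without NCD 3, the library with the highest 5p share. mir-136 gave 15.6%, 11.2% and 20.1% as 5p under HFD and 27.6%, 14.8% and 28.6% under NCD, a difference of -0.72 ± 0.48 (exact permutation p = 0.3). With the miR-3071-3p counts in place of those of miR-136-5p, a setting chosen after the data were seen, the difference was -0.29. The differences for mir-127 and mir-433 were 0.20 ± 0.28 (exact permutation p = 0.6) and -1.33 ± 1.59 (p = 0.5), and the latter rests on 23 reads of the 5p arm in all libraries together. With 1 library left out, the value for mir-127 ran from 0.018 (without NCD 1) to 0.40 (without NCD 3), and that for mir-433 from -2.67 (without HFD 1) to -0.48 (without NCD 3). Over the 5 hairpins the adjusted p ran from 0.5 to 0.6.

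**Figure D4:**
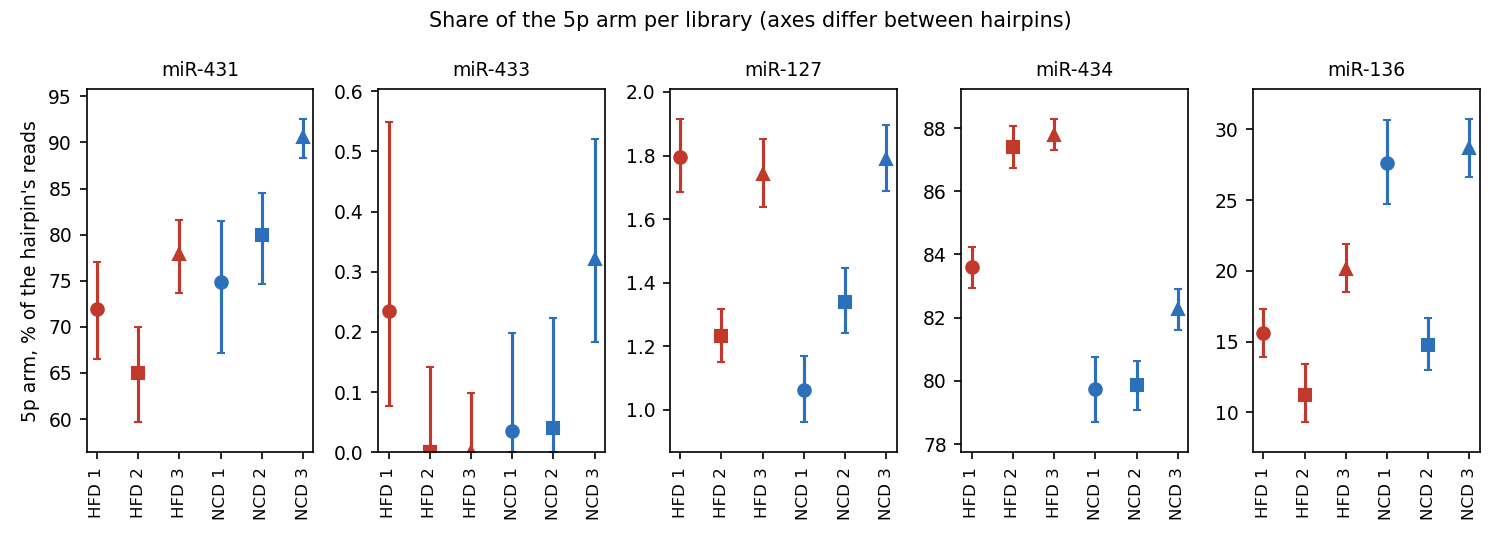
Share of each hairpin's reads that came from the 5p arm, in percent, per library, with exact 95% binomial intervals; HFD is red, NCD is blue, and the axes differ between hairpins and do not all start at 0. For mir-434 the HFD libraries, at 83.6% to 87.8%, lie above the NCD libraries, at 79.7% to 82.3%, and for the others the diets overlap.

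The third comparison asked whether the hairpins vary together from library to library. The more abundant arms of the 5 hairpins give 10 pairs. On TMM-scaled levels Pearson's r of log2 CPM over the 6 libraries ran from -0.72 to 0.83, with a median of -0.03 and 5 of 10 positive. The median over all 82215 pairs of tested miRNAs was 0.0013. With library totals as the only scaling the median of the 10 was 0.66, and that of all pairs was 0.34. The size of these correlations therefore depended on the scaling. In NCD 3 the 5 arms lay 0.42 to 1.72 log2 units above their means by library totals.

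Of 14 relations computed, 10 between hairpins and 4 between arms, none passed after adjustment. The highest was that of miR-434-5p with miR-136-3p, whose hairpins are neighbours 727 bases apart, with r = 0.83 (exact permutation p = 0.0653, adjusted 0.826) and rho = 0.89 (exact permutation p = 0.0333, adjusted 0.408). Without HFD 3 and NCD 1, the libraries farthest from the median of miR-434-5p, r was 0.70, within diets, as deviations from the diet means, it was 0.79, and with library totals only it was 0.88. The lowest was that of miR-433-3p with miR-136-3p, with r = -0.72 (exact permutation p = 0.118, adjusted 0.826) and rho = -0.83 (exact permutation p = 0.0583, adjusted 0.408). It was -0.50 without HFD 1 and NCD 2 and -0.71 within diets, and with library totals only it turned to 0.30.

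For the 2 arms of a hairpin, which share a precursor, the correlation also depended on the scaling. On TMM-scaled levels the values of r were 0.52 for mir-127 (exact permutation p = 0.287), 0.26 for mir-434 (p = 0.611), 0.12 for mir-136 (p = 0.854) and 0.02 for mir-431 (p = 0.992), each with an adjusted p of 0.992. With library totals only they were 0.71, 0.60, 0.71 and 0.47 in the same order. The values of rho were 0.60 (exact permutation p = 0.242), 0.37 (p = 0.497), -0.03 (p = 1.0) and -0.09 (p = 0.919), with adjusted p from 0.846 to 1.0. For mir-127 r was 0.61 without HFD 2 and NCD 1, the libraries farthest from the median of miR-127-5p, and 0.01 within diets, and it was 0.07 without HFD 2 alone. For mir-434 it was 0.28 without HFD 3 and NCD 1 and 0.57 within diets. For mir-136 it was -0.48 without HFD 2 and NCD 2 and 0.41 within diets, and for mir-431 0.58 without NCD 1 and NCD 3 and -0.05 within diets. All values for mir-136 here rest on the miR-136-5p row, whose level is uncertain. They were not computed with the miR-3071-3p counts in its place, so they cannot decide how closely these arms vary together.

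The ratio between 2 hairpins does not depend on scaling. Its SD over the 6 libraries was smallest for miR-434-5p to miR-136-3p, at 0.21 log2 units, and largest for miR-431-5p to miR-127-3p, at 0.73. The median SD of the 10 pairs was 0.59, against 0.86 for all pairs of tested miRNAs, of which 22.8% had a smaller SD than 0.59. Abundant miRNAs vary less through counting than rare ones, and the 2 sets were not matched on level. The SD of a single member, unlike that of a ratio, does depend on scaling. On TMM-scaled levels the SDs of log2 CPM ran from 0.23 for miR-434-3p to 0.61 for miR-136-5p, whose level is uncertain. The median over all tested miRNAs was 0.55 on the same scaling.

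**Figure D5:**
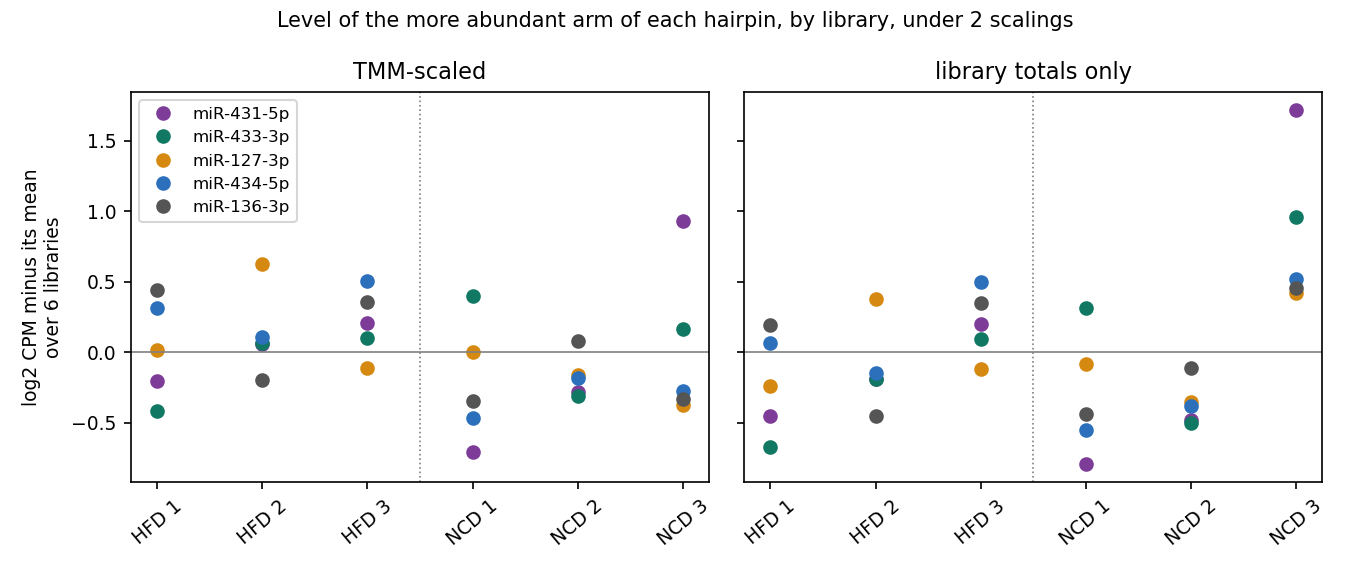
log2 CPM of the more abundant arm of each hairpin minus its own mean over the 6 libraries, on TMM-scaled totals (left) and on library totals only (right); the dotted line separates HFD from NCD. With library totals all 5 arms lie above their means in NCD 3, by 0.42 to 1.72 log2 units, whereas on TMM-scaled totals 2 of the 5 do.

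Outside the cluster, the tested miRNAs whose log2 CPM was most like that of miR-127-3p over the 6 libraries were miR-99b-3p (r = 0.93, mean level 143 CPM), miR-195a-3p (r = 0.90, 15.9 CPM), miR-6899-3p (r = 0.88, 2.29 CPM), miR-6988-3p (r = 0.88, 2.80 CPM) and miR-12182-3p (r = 0.87, 4.92 CPM). None of these 5 belongs to the domain's lists, and 3 of them were at under 5 CPM. With all tested miRNAs outside the cluster compared over 6 libraries that share depth and scaling, these values are a description of rank only. The 8 other tested members had a median r of -0.03 with miR-127-3p, the 11 from the hairpins on either side 0.30, the 48 of the mir-379 to mir-410 cluster -0.03 and all 405 other tested miRNAs 0.12. These medians and the 5 names are from TMM-scaled levels. They were not computed with library totals only, where the correlations between hairpins were different.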

How the data were processed

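Per the labels' protocols, RNA of 3 HFD and 3 NCD islet samples was isolated with the RNeasy mini kit and made into NEBNext small RNA libraries. The values tested are the read counts the authors deposited for each mature miRNA in each library. The deposited TPM values equal CPM on the raw total (largest relative difference 4.61e-09) and were not used in the tests. For aligner, counting tool, strand setting, genome build and annotation, the sources used here give nothing. Counts were tested with edgeR 4.0.16 in R 4.3.3: filterByExpr (minimum count 10), TMM, estimateDisp and glmQLFit with its newer dispersion estimate, diet as the only term, with p adjusted over the 406 miRNAs tested. CPM uses TMM-scaled totals of these rows, which leave out at most 0.0351% of reads. Arm ratios used a prior count of 0.5 per arm and two-sided exact permutation tests. Correlations used log2 CPM with a prior count of 0.5 and exact permutation of the 6 libraries. The edgeR fit was tested on simulated data. Alternatives were other scalings and filters, DESeq2 1.42.0, limma-voom (limma 3.58.1), edgeR's legacy setting, a replicate block, an adjusted p of 0.1 and each library left out. The newer estimate, in place of the default of this edgeR version, was chosen because it gave the numbers of miRNAs that an earlier account of these data reports. Both settings called 1 miRNA and 0 members. The legacy setting and both treatments of the miR-3071 rows were chosen after the data were seen. Named were the members, their reverse-complementary rows, the 5 miRNAs most like the most abundant member and the 3 most abundant of each other list of the domain. The members and lists were chosen with earlier results of these data known. No 2 libraries of a diet had counts that agreed within sampling noise (chi-square of 447 to 2305 for each degree of freedom), so none was taken as a second deposit of another. That does not show that they came from separate animals.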

Additional observations from a re-analysis of the deposited data

How the results depend on the processing

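The number of anti-Rtl1 miRNAs called between diets was 0 at first and under each of its 18 alternatives, and over these the adjusted p of a member was never below 0.372. The number of all miRNAs called was 1 at first, 0 with library totals only, 8 without a filter and 3 with DESeq2, and with 1 library omitted between 0 and 4 (0 without NCD 1, 4 without NCD 2, 3 without NCD 3). The log2 fold changes of miR-431-3p, miR-433-3p, both mir-127 arms, miR-434-5p and miR-136-3p kept their sign under all alternatives run. That of miR-434-3p, 0.03 at first, was -0.0497 with RLE size factors, -0.050 with DESeq2, -0.34 with library totals, -0.0247 for unfiltered rows, -0.13 where a mean count of 100 was required and -0.0064 without the most abundant miRNA, and lay between -0.17 and 0.14 with 1 library omitted. That of miR-431-5p was 0.0071 with limma-voom and lay between -0.50 and 0.50 with 1 library omitted, and that of miR-136-5p between -0.58 and 0.0552. miR-431-3p did not reach a mean count of 100 and had no value there. The difference between diets in the share of reads held by the members was -0.0038 percentage points at first and 0.199 on TMM-scaled totals, and with 1 library omitted it ran from -0.096 (without NCD 2) to 0.132 (without NCD 3). The arm ratio differences kept their sign under all alternatives, and the median correlation between hairpins moved from -0.03 to 0.66 with library totals only. For none of these changes was the cause tested. Libraries with the same replicate number had deviations that correlated at 0.14 (number 1), -0.24 (number 2) and 0.31 (number 3). HFD 1 was more like NCD 2 (0.25) than NCD 1, whereas the value of number 3 was the highest of all pairs compared. With 3 libraries for each diet these values cannot decide whether the numbers pair the libraries. With the replicate block 1 miRNA and 0 members were called, and the exact test of the mir-434 arm ratio, 0.60 in that analysis too, gave p = 0.25, the smallest that 3 pairs allow.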
